A study of Homo sapiens with 6 samples.

Results

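The ADAM, ADAMTS and ADAMTSL genes encode a family of cell-surface and secreted proteins built around, or derived from, a zinc metalloprotease. They were taken as the protein-coding genes of the deposited table whose symbol is ADAM, ADAMTS or ADAMTSL followed by a number. This gave 44 of 58299 genes, of which 20 are ADAM, 19 ADAMTS and 5 ADAMTSL genes. ADAM5 and ADAM6 also have such symbols but are pseudogenes and were left out. RNA was sequenced from AC16 cells, a human line made by fusing ventricular heart muscle cells with transformed fibroblasts. Treated cells had 100 nM CDDO-Me, an activator of the transcription factor NRF2, for 24 h, and then 100 nM doxorubicin, an anthracycline that traps topoisomerase II, for a further 48 h (3 libraries). Control cells had the vehicle, 0.1% DMSO, for 72 h (3 libraries). From the labels it is unclear if doxorubicin was added on top of CDDO-Me or in its place. Cells given 1 drug alone are not analysed here, and the effects of the drugs cannot be told apart.

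ADAM proteins span the membrane. Those with an active protease cut the outer parts of other membrane proteins, which releases growth factors and cytokines and starts Notch signalling. ADAMTS proteins are secreted, carry thrombospondin repeats that hold them in the matrix, and cut proteoglycans, procollagens and other matrix proteins. ADAMTSL proteins share the thrombospondin repeats, lack the protease, and several bind fibrillin microfibrils.

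The depth was 19732013 to 20193957 counts in treated libraries and 17150259 to 19387496 in control libraries. The members took 0.158 ± 9.04e-04% of the counts in treated cells and 0.205 ± 0.00601% in control cells (SD, n = 3 each). No defining cardiomyocyte marker of 12 reached a mean of 1 CPM (counts per 1e6 counted reads, here of total counts) in either group: their summed level was 1.14 to 2.79 CPM in treated libraries and 0.816 to 1.26 CPM in control libraries, and TNNI3 was at 0 in all libraries. All 11 fibroblast markers passed that level, and the 11 summed to 13830.3 to 14435 CPM in treated and 23689.9 to 25778 CPM in control libraries. The mean was lower in treated cells for 10 of the 11, and higher for VIM (2248 CPM in treated and 2103 CPM in control cells). The part of this fall in the results on matrix proteases was not tested, and in bulk RNA fewer cells of a kind and less RNA per cell cannot be told apart. Endothelial markers (5) summed to 11.9 to 12.7 CPM in treated and 20.8 to 23.2 CPM in control libraries; the lower sum in treated cells came from TEK (7.30 CPM in treated and 19.7 CPM in control cells), while the other 4 had higher means in treated cells. Leukocyte markers (5) summed to 5.71 to 6.54 CPM in treated and 1.91 to 2.97 CPM in control libraries. CD3E and LYZ were at 0 in all controls, and CD3E had only 1 count in the treated libraries, in replicate 3. PTPRC had a mean of 3.98 CPM in treated and 1.06 CPM in control cells. The mean was higher in treated cells for 4 of the 5 markers. It was lower for CD14 (0.988 CPM in treated and 1.16 CPM in control cells). The labels do not state that replicates came from separate cultures, so the spread behind each p-value may be technical.

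The catalytic site sets the proteases of the family apart from its other members. In the longest coding transcript of each gene in GENCODE (GRCh38), 31 of the 44 members encoded the zinc-binding motif of this class (His-Glu, 2 residues, His, 5 residues, His) and 13 did not. All 9 genes of the shedding ADAM group and all 19 ADAMTS genes had it. The 5 ADAMTSL genes, the 3 neural genes ADAM11, ADAM22 and ADAM23, and 5 of 8 reproductive ADAM genes lacked it. The stretch of 33 bases that encodes the motif is shown in the sense direction, with the codons of the zinc-binding histidines and the catalytic glutamate in capitals. It is shown for 17 of the genes with the motif whose levels are tested below (not for ADAM9, ADAM21, ADAMTS6, ADAMTS13 and ADAMTS16). Of the shedding ADAM genes, these are:
ADAM10: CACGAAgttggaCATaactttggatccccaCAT
ADAM17: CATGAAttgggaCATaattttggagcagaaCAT
ADAM12: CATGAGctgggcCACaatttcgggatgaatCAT
ADAM19: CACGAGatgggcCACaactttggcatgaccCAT
ADAM33: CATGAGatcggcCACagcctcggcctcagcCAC
ADAM15: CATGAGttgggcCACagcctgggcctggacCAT
ADAM8: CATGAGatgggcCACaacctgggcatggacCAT

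The same stretch is given for the hyalectan-cleaving enzymes, the procollagen N-proteinases, the COMP-cleaving pair and ADAMTS10:
ADAMTS1: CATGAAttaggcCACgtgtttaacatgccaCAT
ADAMTS4: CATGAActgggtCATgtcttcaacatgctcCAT
ADAMTS5: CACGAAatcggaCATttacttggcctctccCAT
ADAMTS15: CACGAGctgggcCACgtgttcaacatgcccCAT
ADAMTS2: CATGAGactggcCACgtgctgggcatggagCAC
ADAMTS3: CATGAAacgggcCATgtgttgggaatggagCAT
ADAMTS14: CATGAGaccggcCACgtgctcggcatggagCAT
ADAMTS7: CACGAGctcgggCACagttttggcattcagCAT
ADAMTS12: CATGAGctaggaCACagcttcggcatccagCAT
ADAMTS10: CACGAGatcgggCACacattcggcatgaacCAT
ADAMTS2 and ADAMTS14 shared 30 of the 33 bases, and each shared 27 with ADAMTS3. ADAMTS7 and ADAMTS12 shared 27, as did ADAMTS1 and ADAMTS15, whereas ADAMTS5 shared 19 with each of ADAMTS1, ADAMTS4 and ADAMTS15. Among the 31 genes with the motif, 6 were called higher in treated cells, 14 lower and 2 were not called. Among the 13 without it, 1 was called higher, 3 lower and 2 were not called. The rest of each group was too low to be tested. Of all tested genes, 32.3% were called higher and 31.2% lower. ADAM23, the 1 gene called higher without the motif, passed the filter on low counts only through its treated libraries. Whether genes with and without the motif differ was not tested.

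Most of the expressed family fell with treatment. Of the 44 members, 28 passed a filter on low counts and 16 did not. At an edgeR quasi-likelihood adjusted p below 0.05 (Benjamini-Hochberg over all 15575 genes tested), 24 of the 28 were called, where 63.5% of all tested genes were. Lower were 17 members (60.7%), against 31.2% of all tested genes, and higher were 7 (25.0%), against 32.3%. At least 2-fold lower were 11 (39.3%), against 4.62% of all tested genes, and at least 2-fold higher were 4 (14.3%), against 10.9%. The libraries of the groups did not overlap in 24 of the 28, and in 66.7% of all tested genes. The median log2 change (treated minus control) was -0.77 over the 28 members and 0.02 over all tested genes. ADAM23 and ADAM21 passed the filter only through their treated libraries, and without them 6 members were higher and 17 lower of 26. Of these 26, 3 (11.5%) were at least 2-fold higher, near the 10.9% of all tested genes, and 11 (42.3%) at least 2-fold lower. Scaling by total counts in place of TMM (trimmed mean of M-values) moved the median of all genes to 0.15, and all genes were then called 6355 times higher and 3602 times lower, against 5028 and 4865 with TMM. The members were then called 8 times higher and 15 times lower.

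**Figure D1:**
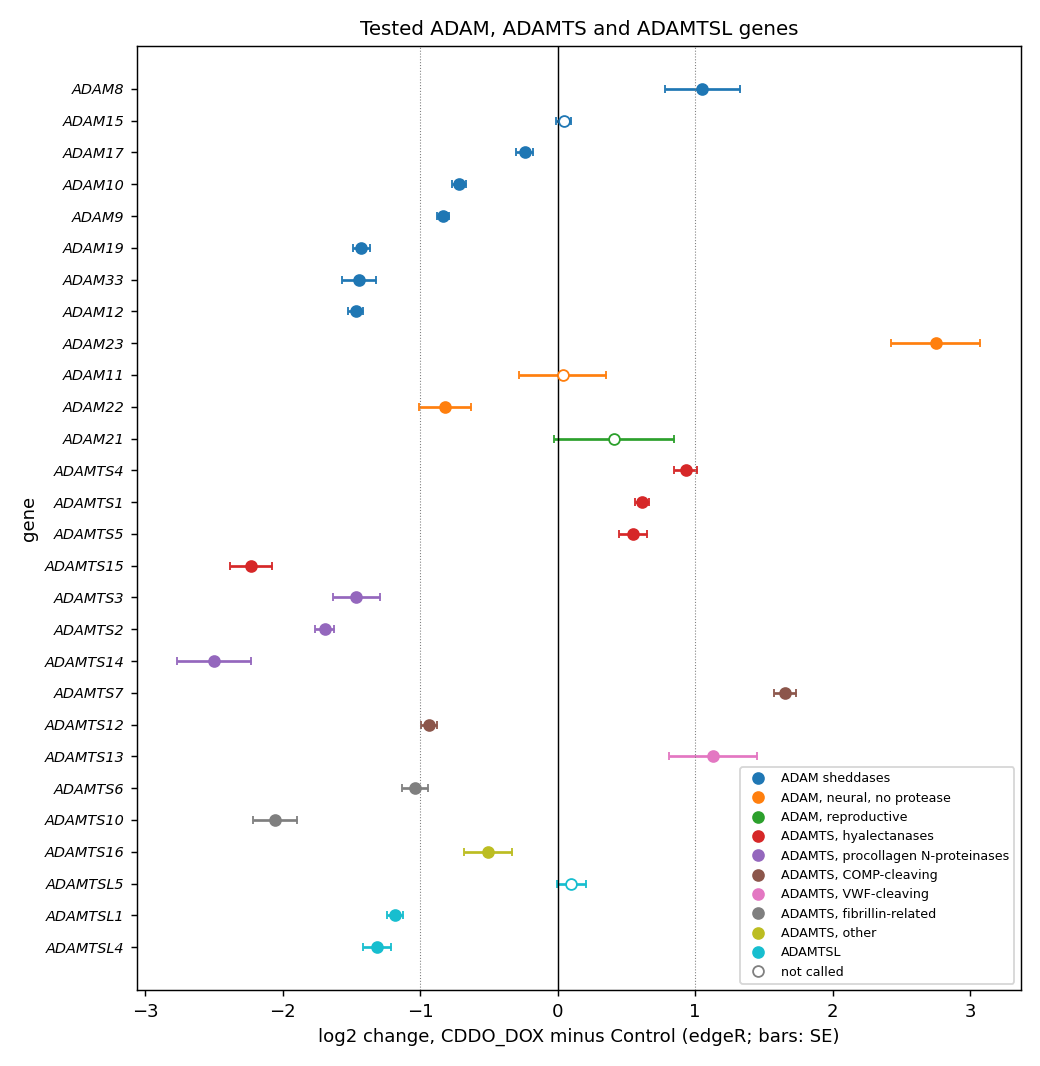
Log2 change, treated (CDDO_DOX) minus control, on the horizontal axis for each tested gene, grouped and coloured by role, with bars of 1 standard error (SE) and open points for genes not called. The 3 procollagen N-proteinases lie left of -1, while 3 of the 4 hyalectanases lie right of 0.

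Levels between genes are compared as TMM-normalised CPM per kilobase of exon. On this scale ADAM9 and ADAMTS1 stood above the other members in each group. ADAM9 held 56.9 ± 0.709 in treated and 101 ± 1.96 CPM per kilobase in control cells, and ADAMTS1 held 53.8 ± 1.28 in treated and 35.1 ± 3.21 CPM per kilobase in control cells (SD, n = 3 each). The 2 genes lay close together in treated cells, though their libraries did not overlap, and far apart in control cells. Next in treated cells came ADAM15 (16.6), ADAM17 (11.1), ADAMTS7 (7.62), ADAM10 (7.49) and ADAM19 (7.28 CPM per kilobase), and the libraries of ADAMTS7, ADAM10 and ADAM19 overlapped. Next in control cells came ADAM19 (19.6), ADAM15 (16.1), ADAM12 (14.7), ADAM17 (13.1), ADAMTS12 (12.6) and ADAM10 (12.3 CPM per kilobase), and the libraries of ADAM17, ADAMTS12 and ADAM10 overlapped. ADAMTS7 ranked 5 in treated and 15 in control cells, and ADAM19 ranked 7 in treated and 3 in control cells. Summed over the 44 members the level was 199.5 ± 2.81 in treated and 272 ± 9.31 CPM per kilobase in control cells. ADAM9 made up 28.5 ± 0.156% of that sum in treated and 37.3 ± 1.04% in control cells, and ADAMTS1 27.0 ± 0.934% in treated and 12.9 ± 0.750% in control cells. The length is that of all annotated exons together, so a gene with long exons outside its main transcript is understated.

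**Figure D2:**
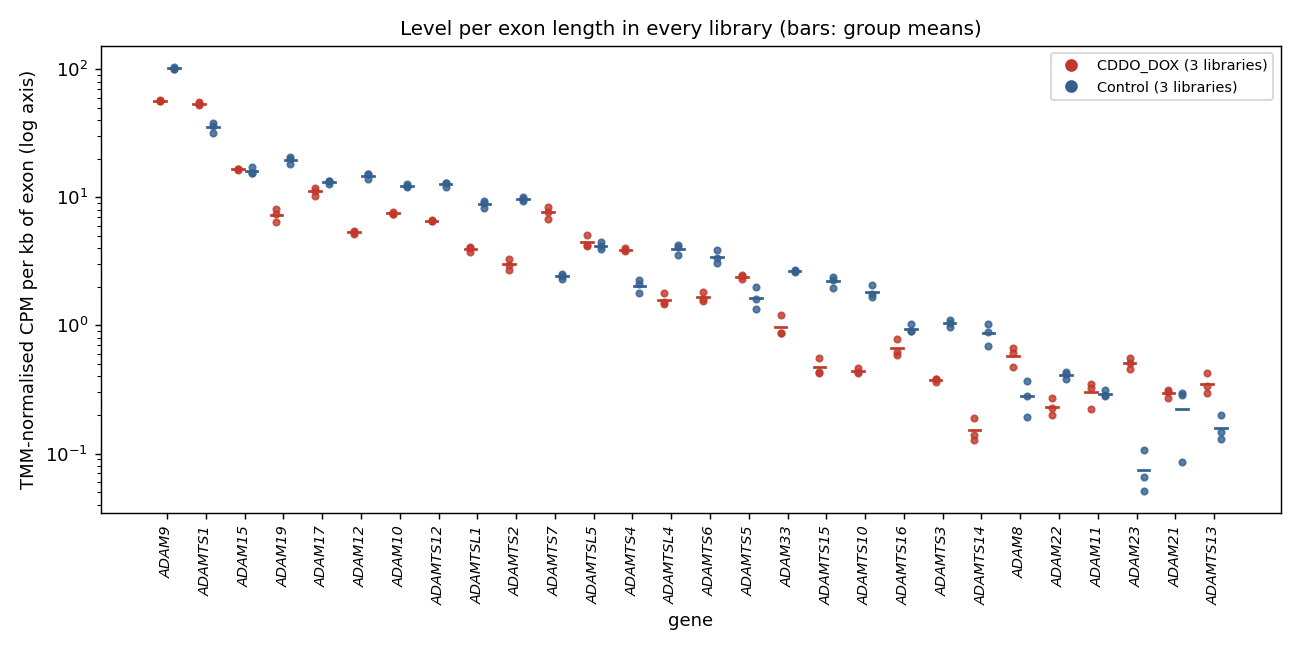
TMM-normalised CPM per kilobase of exon (log axis) of the 28 tested members, ordered by their mean over both groups; each point is a library, with treated (CDDO_DOX) left of control, and bars are group means. ADAM9 and ADAMTS1 stand above the rest, and the ADAMTS7 points of treated cells lie above those of control cells.

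Of the 9 sheddases, 6 fell, ADAM8 rose, ADAM15 was not called and ADAM28 was too low to test. Summed per length, the 9 genes stood at 106 ± 2.19 in treated and 180.3 ± 4.01 CPM per kilobase in control cells (SD, n = 3 each). ADAM9 (ENSG00000168615), a widely expressed sheddase, had 389.7, 399 and 391 CPM in the treated libraries, against 692, 695 and 717 CPM in the control libraries. The groups were far apart relative to their spread, and the log2 change was -0.84 (SE 0.045, edgeR adjusted p = 2.66e-25). ADAM10 (ENSG00000137845, GRCh38 chromosome 15, 58588807 to 58749978), which makes the first cut in Notch signalling and the alpha-secretase cut of APP, had 124, 119.8 and 119.6 CPM in treated and 198, 193 and 207 CPM in control libraries. Its log2 change was -0.72 (SE 0.050, edgeR adjusted p = 4.31e-20). ADAM17 (ENSG00000151694, chromosome 2, 9488486 to 9555792), the TNF-alpha converting enzyme that also releases most EGF receptor ligands, had 56.3, 65.2 and 61.9 CPM in treated and 73.1, 70.3 and 73.0 CPM in control libraries. The treated libraries all lay below the controls, by a smaller margin than for ADAM10, with a log2 change of -0.24 (SE 0.061, edgeR adjusted p = 4.92e-04). The call was lost when libraries were scaled by total counts (-0.11, edgeR adjusted p = 0.101). Exons of IAH1 cover 24.1% of the ADAM17 exon bases; IAH1 was not called (log2 change 0.08, edgeR adjusted p = 0.400), and without strand information their reads there cannot be told apart.

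The 3 sheddases that fell at least 2-fold are known from fibroblasts and developing tissue. ADAM12 (ENSG00000148848, chromosome 10, 126012381 to 126388455), a meltrin that cuts insulin-like growth factor binding proteins, had 51.3, 53.8 and 52.7 CPM in treated and 149, 136 and 151 CPM in control libraries. Its log2 change was -1.47 (SE 0.056, edgeR adjusted p = 1.04e-32). ADAM19 (ENSG00000135074, chromosome 5, 157395534 to 157575775), a meltrin needed for heart valve and septum formation in mouse, had 49.2, 62.1 and 57.1 CPM in treated and 158, 141 and 154 CPM in control libraries. Its log2 change was -1.43 (SE 0.061, edgeR adjusted p = 2.00e-30). ADAM33 (ENSG00000149451, chromosome 20, 3667965 to 3682246), studied mainly in airway fibroblasts and smooth muscle, had 5.06, 5.12 and 6.98 CPM in treated and 15.6, 15.2 and 15.9 CPM in control libraries, a log2 change of -1.44 (SE 0.127). These 3 changes lay within 1 SE of each other. ADAM8 (ENSG00000151651, chromosome 10, 133262403 to 133276868), best known from leukocytes, was low and went the other way. It had 3.18, 2.90 and 2.26 CPM in treated and 0.919, 1.75 and 1.35 CPM in control libraries, with a log2 change of 1.05 (SE 0.274, edgeR adjusted p = 6.57e-04). The summed leukocyte markers were also higher in treated libraries, with CD14 as the exception among the single markers (values above). Their part in the ADAM8 result was not tested. ADAM15, which carries an integrin-binding sequence, had 109 ± 1.14 CPM in treated and 106 ± 5.92 CPM in control cells (SD, n = 3 each), and was not called (log2 change 0.04, SE 0.053). With total counts only, it was called higher (0.17, edgeR adjusted p = 0.00393).

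The 3 neural members lack the protease and act as adhesion receptors, ADAM22 and ADAM23 for the secreted protein LGI1. They parted in direction. ADAM23 (ENSG00000114948, chromosome 2, 206443539 to 206621130) had 3.28, 3.54 and 2.93 CPM in treated and 0.689, 0.423 and 0.325 CPM in control libraries, and its log2 change of 2.75 (SE 0.324, edgeR adjusted p = 4.08e-11) was the largest increase among the tested members. The control values rest on 12, 7 and 6 counts, and those of the treated libraries on 68, 72 and 62 counts. ADAM22 had 2.75, 3.30 and 2.45 CPM in treated and 5.05, 4.66 and 5.25 CPM in control libraries, a log2 change of -0.82 (SE 0.192). ADAM11 had 1.43 ± 0.326 CPM in treated and 1.39 ± 0.0882 CPM in control cells (SD, n = 3 each) and was not called. Of the 8 reproductive members, whose proteins are known from sperm and epididymis, ADAM21 alone was tested. It had 0.723, 0.837 and 0.802 CPM in treated and 0.230, 0.786 and 0.758 CPM in control libraries. The groups overlapped and it was not called (log2 change 0.41, SE 0.435).

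The hyalectanases cut versican, aggrecan and related proteoglycans. Of the 7 genes, 4 were tested: ADAMTS1, ADAMTS4 and ADAMTS5 rose and ADAMTS15 fell. ADAMTS1 (ENSG00000154734, chromosome 21, 26835747 to 26845409) had 389.9, 378 and 372 CPM in treated and 253, 223 and 268 CPM in control libraries. All treated libraries lay above all controls, with a log2 change of 0.62 (SE 0.050, edgeR adjusted p = 4.53e-17). ADAMTS4 (aggrecanase 1) had 40.4 ± 1.23 CPM in treated and 21.2 ± 2.54 CPM in control cells (SD, n = 3 each), a log2 change of 0.93 (SE 0.081). ADAMTS5 (aggrecanase 2; chromosome 21, 26917912 to 26966513) had 22.4, 21.0 and 22.0 CPM in treated and 12.2, 14.4 and 18 CPM in control libraries. Its control libraries were more spread than its treated ones, and its log2 change was 0.55 (SE 0.102, edgeR adjusted p = 4.22e-06). ADAMTS1 and ADAMTS5 lie on the same strand with 72.5 kb between them. ADAMTS15 (ENSG00000166106, chromosome 11, 130448974 to 130476641), a versican-cleaving enzyme, had 3.13, 2.46 and 2.41 CPM in treated and 12.9, 11.1 and 13.5 CPM in control libraries, and fell by 2.23 on the log2 scale (SE 0.154, edgeR adjusted p = 4.36e-20). Its neighbour ADAMTS8, 19.98 kb away on the other strand, held 2, 0 and 7 counts in treated libraries and 0 in the controls. Summed per length, the 7 hyalectanases stood at 60.7 ± 1.28 in treated and 41.0 ± 3.76 CPM per kilobase in control cells, and ADAMTS1 made up most of that sum. VCAN, the gene of versican, also rose, from a list of substrates described below: it had 266, 318 and 286 CPM in treated and 183, 176 and 201 CPM in control libraries (log2 change 0.63, SE 0.053).

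The 3 procollagen N-proteinases, which remove the amino-terminal propeptide from fibrillar procollagens, all fell at least 2-fold. ADAMTS2 (ENSG00000087116, chromosome 5, 179110851 to 179345430), the main enzyme for procollagen I and the gene of dermatosparactic Ehlers-Danlos syndrome, had 26.0, 28.7 and 23.8 CPM in treated and 87.8, 81.3 and 84.5 CPM in control libraries. Its log2 change was -1.69 (SE 0.068, edgeR adjusted p = 9.78e-32). ADAMTS14 (ENSG00000138316, chromosome 10, 70672803 to 70762441) had 0.674, 0.738 and 0.991 CPM in treated and 4.71, 5.38 and 3.63 CPM in control libraries. This log2 change, -2.50 (SE 0.267, edgeR adjusted p = 1.72e-12), was the largest decrease among the tested members. ADAMTS3 (ENSG00000156140, chromosome 4, 72280969 to 72569386), which also activates VEGF-C together with the CCBE1 protein, had 2.75, 2.76 and 2.60 CPM in treated and 7.52, 7.86 and 6.98 CPM in control libraries, a log2 change of -1.46 (SE 0.173). Summed per length, they stood at 3.52 ± 0.270 in treated and 11.6 ± 0.360 CPM per kilobase in control cells (SD, n = 3 each). Of the procollagen genes listed as their substrates, 4 fell and COL2A1, at 1 count over the controls, was called higher (values below). The log2 change was -1.61 for COL1A1, -0.90 for COL1A2, -2.01 for COL3A1 and -1.51 for COL5A1. PCOLCE, whose product enhances removal of the propeptide at the other end, had 49.5, 46.7 and 49.1 CPM in treated and 117, 109.9 and 111 CPM in control libraries (log2 change -1.22, SE 0.058). BMP1, the protease of that other end, had a log2 change of 0.17 (SE 0.059, edgeR adjusted p = 0.00915), with overlapping libraries. The summed fibroblast markers, 3 of which are among these collagen genes, were lower as well, with VIM as the exception (values above), and their part in the result on the N-proteinases was not tested.

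The COMP-cleaving pair, ADAMTS7 and ADAMTS12, moved in opposite directions. ADAMTS7 (ENSG00000136378, chromosome 15, 78759203 to 78811431) had 52.7, 65.1 and 58.9 CPM in treated and 19.5, 18.8 and 17.9 CPM in control libraries, a log2 change of 1.65 (SE 0.078, edgeR adjusted p = 5.50e-28). ADAMTS12 (ENSG00000151388, chromosome 5, 33523535 to 33892192) had 63.6, 65.1 and 64.4 CPM in treated and 126, 118 and 126 CPM in control libraries, a log2 change of -0.94 (SE 0.055, edgeR adjusted p = 2.38e-23). In treated cells the levels per length of the pair were 7.62 ± 0.802 (ADAMTS7) and 6.58 ± 0.0749 CPM per kilobase (ADAMTS12), and in control cells 2.42 ± 0.108 (ADAMTS7) and 12.6 ± 0.492 CPM per kilobase (ADAMTS12; SD, n = 3 each). Their sum was 14.2 ± 0.877 in treated and 15 ± 0.491 CPM per kilobase in control cells. ADAMTS7 has pseudogene copies between which reads could be split: ADAMTS7P1, ADAMTS7P3 and ADAMTS7P4 held 5, 9 and 5 counts over the treated libraries, against 0, 1 and 21 over the control libraries. ADAMTS13 (chromosome 9, 133414358 to 133459402), which cuts von Willebrand factor, had 1.69, 1.92 and 2.41 CPM in treated and 0.747, 0.846 and 1.14 CPM in control libraries (log2 change 1.13, SE 0.320, edgeR adjusted p = 0.00172). Its substrate gene VWF was not called.

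The fibrillin-related pair ADAMTS10 and ADAMTS6 fell, and of the 5 ADAMTSL genes 2 fell, 1 was not called and 2 were too low to test. ADAMTS10 (ENSG00000142303, chromosome 19, 8580242 to 8610735), a gene of Weill-Marchesani syndrome, had 2.41, 2.66 and 2.45 CPM in treated and 11.9, 9.98 and 9.42 CPM in control libraries. Its log2 change was -2.05 (SE 0.162, edgeR adjusted p = 1.54e-17). Its close relative ADAMTS6 (chromosome 5, 65148736 to 65481920) had 13.9, 13.4 and 15.7 CPM in treated and 26.3, 28.7 and 33.2 CPM in control libraries, a log2 change of -1.04 (SE 0.094). ADAMTSL4 (chromosome 1, 150549369 to 150560937), a gene of ectopia lentis whose product binds fibrillin-1, had 9.39, 9.79 and 11.4 CPM in treated and 26.2, 22.7 and 27.1 CPM in control libraries, a log2 change of -1.31 (SE 0.102). ADAMTSL4 shared 14.4% of its exon bases with antisense genes, which held 13, 9 and 9 counts (ADAMTSL4-AS1) and 5, 5 and 6 counts (ADAMTSL4-AS2) in treated libraries, against 5, 6 and 4 counts (ADAMTSL4-AS1) and 5, 1 and 1 counts (ADAMTSL4-AS2) in control libraries. FBN1 itself, fibrillin-1, had a log2 change of -1.36 (SE 0.050), while FBN2 was not called (-0.10, SE 0.055). Of the other ADAMTSL genes, ADAMTSL1 (punctin; chromosome 9, 17906563 to 18910950) had 51.2, 54.6 and 55.5 CPM in treated and 128, 113 and 124 CPM in control libraries, a log2 change of -1.18 (SE 0.058). ADAMTSL5 had 16.3 ± 1.91 CPM in treated and 15.2 ± 1.06 CPM in control cells (SD, n = 3 each) and was not called. ADAMTS16, a protease of unsettled substrate range, had 3.42, 3.64 and 4.62 CPM in treated and 5.28, 5.32 and 6.01 CPM in control libraries (log2 change -0.51, SE 0.176, edgeR adjusted p = 0.00999). That call was lost without treated replicate 1 (edgeR adjusted p = 0.0529), with DESeq2 (adjusted p = 0.0591) and with total counts (edgeR adjusted p = 0.0557).

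The 16 members under the filter had at most 15 counts in any library. Of these, 11 had 0 counts in all 3 control libraries, and 9 of the 11 had more than 3 counts over the treated libraries. Among all protein-coding genes at 0 in the controls, this held for 1567 of 4379 (35.8%), and the opposite pattern, more than 3 counts over the controls among genes at 0 in the treated libraries, held for 12 of 1773 (0.677%). ADAMTS18 had 7, 9 and 15 counts in treated libraries and 0 in each control, at least 8.70-fold higher against a floor of 3 counts over the control group. ADAMTS20, a hyalectanase, had 7, 11 and 5 counts in treated libraries and 0 in each control, at least 6.45-fold higher. ADAM7 had 4, 9 and 4 counts and ADAM29 had 3, 7 and 6 counts in treated libraries, with 0 in each control, at least 4.77-fold and 4.49-fold higher. For ADAMTS19, ADAMTS9, ADAMTS8, ADAM2 and ADAMTSL3 the lower bound ran from 1.68-fold to 3.65-fold, and at least 1 treated library held 0 counts for each of them but ADAMTS9. ADAM28, a sheddase, had 22 counts over the treated and 6 over the control libraries, a ratio of 3.09 (95% counting interval 1.21 to 9.31). ADAM32 had 22 counts over the treated and 27 over the control libraries, a ratio of 0.686 (0.372 to 1.25), and ADAMTS17 had 15 over the treated and 6 over the control libraries, a ratio of 2.10 (0.772 to 6.62). ADAM20, ADAM30, ADAM18 and ADAMTSL2 held at most 5 counts over either group. When no filter was applied, edgeR called 6 of the 16 higher (ADAMTS18, ADAMTS20, ADAM7, ADAM29, ADAMTS19 and ADAMTS9), where 17% of all genes then tested were called higher, and DESeq2 called the first 4 of these, where it called 20.9% of genes higher. Intervals cover counting error only. The lower bounds set the control group at the floor and take the treated counts as exact, so they leave out the counting error of the treated libraries. Without a filter, ADAM2 and ADAMTSL3, whose bound was 1.68-fold, were not called (edgeR adjusted p = 0.151 for each).

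**Figure D3:**
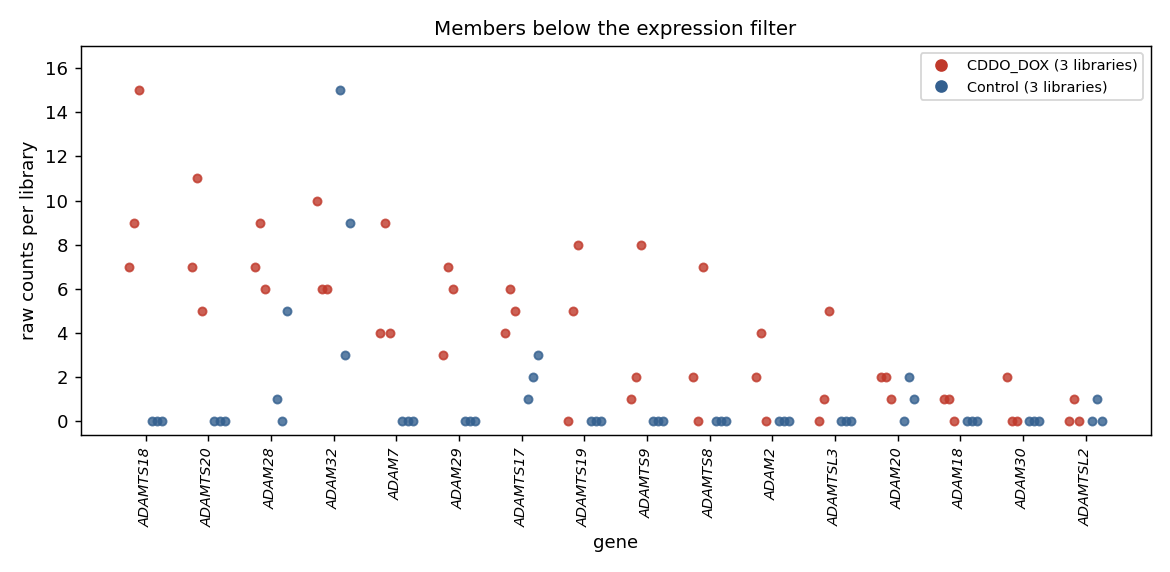
Raw counts per library of the 16 members under the filter; each point is a library, with treated (CDDO_DOX) left of control. For 11 genes all 3 control points lie at 0, while ADAM32 has its highest point, 15 counts, in a control library.

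The promoter window of RefSeq (GRCh38.p14; 250 bases before to 50 after the gene start) was matched for 29 of the 44 members. The start is that of the RefSeq entry: it lay within 750 bases of the outermost start in the counted table for 25 of them, and 2540 bases or more from it for ADAM29, ADAMTS13, ADAMTSL1 and ADAMTSL2. ADAM2, ADAM7, ADAM9, ADAM11, ADAM18, ADAM28, ADAM32, ADAM33, ADAMTS1, ADAMTS4, ADAMTS5, ADAMTS8, ADAMTS9, ADAMTS15 and ADAMTS16 had no entry. The windows were searched on both strands for the core of the antioxidant response element that NRF2 binds (TGACNNNGC) and for the p53 decamer half-site. A loose AP-1 pattern (TGANTCA, any base in the middle) was searched as well. The antioxidant core was in 2 of the 29 windows (6.90%), those of ADAMTS2 and ADAMTS12, against 13.6% of 27305 promoters. The AP-1 pattern was in 1 (3.45%), that of ADAMTS12 (as TGAATCA), against 7.76%, and the p53 half-site in 0, against 6.54%. A core match and an AP-1 match can overlap, but those of ADAMTS12 did not. The windows with matches are shown with the matched letters in capitals. Those of ADAM23 and ADAMTS14, the tested members with the largest increase and decrease, held no match and follow:
ADAMTS2 (chr5:179345412-179345711, minus strand): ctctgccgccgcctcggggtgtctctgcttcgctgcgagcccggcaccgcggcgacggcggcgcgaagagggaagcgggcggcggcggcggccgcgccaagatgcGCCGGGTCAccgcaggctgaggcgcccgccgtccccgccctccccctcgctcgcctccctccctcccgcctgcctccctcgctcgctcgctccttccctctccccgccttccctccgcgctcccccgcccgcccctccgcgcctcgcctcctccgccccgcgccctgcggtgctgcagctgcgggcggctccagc
ADAMTS12 (chr5:33891941-33892240, minus strand): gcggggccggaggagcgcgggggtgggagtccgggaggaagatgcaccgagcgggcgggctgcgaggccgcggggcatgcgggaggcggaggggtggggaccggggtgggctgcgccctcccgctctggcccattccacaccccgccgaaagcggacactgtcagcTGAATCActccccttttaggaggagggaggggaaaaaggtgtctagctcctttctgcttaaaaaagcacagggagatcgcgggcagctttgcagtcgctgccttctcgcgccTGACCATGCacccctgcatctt
ADAM23 (chr2:206443282-206443581, plus strand): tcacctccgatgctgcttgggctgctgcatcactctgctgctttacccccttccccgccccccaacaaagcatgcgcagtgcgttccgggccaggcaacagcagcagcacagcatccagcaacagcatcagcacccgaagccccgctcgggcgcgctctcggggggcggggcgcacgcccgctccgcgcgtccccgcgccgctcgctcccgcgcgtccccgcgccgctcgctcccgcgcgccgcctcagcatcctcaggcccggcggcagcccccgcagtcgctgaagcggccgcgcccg
ADAMTS14 (chr10:70672256-70672555, plus strand): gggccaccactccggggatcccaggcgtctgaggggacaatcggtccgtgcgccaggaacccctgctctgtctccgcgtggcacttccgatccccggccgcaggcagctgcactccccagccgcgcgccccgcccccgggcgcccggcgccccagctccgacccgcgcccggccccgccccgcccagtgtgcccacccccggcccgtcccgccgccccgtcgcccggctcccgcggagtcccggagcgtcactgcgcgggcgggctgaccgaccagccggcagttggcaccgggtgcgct
ADAMTS2 and ADAMTS12, the members with a core match, were both among those that fell, as were 60.7% of all tested members.

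Of 18 listed regulators of the shedding enzymes, 17 were tested. Higher were 9 (52.9%, against 32.3% of all tested genes), lower were 6 (35.3%, against 31.2%) and 2 were not called, with 88.2% called in all against 63.5%; the median log2 change was 0.48. PCSK5 and TSPAN33 passed the filter only through their treated libraries and TSPAN15 only through its control libraries. Without these 3 genes, 7 were higher and 5 lower of 14, and the median was 0.25. The partners that carry ADAM17 to the cell surface rose. RHBDF2 (iRhom2) had 49.0, 54.2 and 52.7 CPM in treated and 25.0, 21.6 and 20.7 CPM in control libraries (log2 change 1.21, SE 0.076), and RHBDF1 (iRhom1) had 67.3, 73.2 and 74.2 CPM in treated and 46.2, 39.8 and 42.7 CPM in control libraries (0.74, SE 0.065). FRMD8, which stabilises the iRhoms at the surface, had a log2 change of 1.01 (SE 0.057). The TspanC8 tetraspanins, which escort ADAM10, split: TSPAN10 had 43.0, 49.7 and 40.6 CPM in treated and 10.7, 9.01 and 8.50 CPM in control libraries (log2 change 2.24, SE 0.095). TSPAN15 had 0.385, 1.03 and 0.377 CPM in treated and 2.41, 2.78 and 2.76 CPM in control libraries (log2 change -2.14, SE 0.338). Of the convertases that remove the prodomain, PCSK5 had 42, 17 and 42 counts in treated and 3, 0 and 1 counts in control libraries (log2 change 4.29, SE 0.593), PCSK7 fell (-0.43, SE 0.073) and FURIN was not called. The inhibitors split as well. TIMP1 had 257, 247 and 247 CPM in treated and 119, 113 and 109 CPM in control libraries (log2 change 1.14, SE 0.050), and TIMP4 had 6.02, 6.50 and 6.51 CPM in treated and 1.95, 1.21 and 1.30 CPM in control libraries (2.09, SE 0.210). TIMP2 fell (-0.33, SE 0.046), as did RECK, a membrane-anchored inhibitor (-0.75, SE 0.078). TIMP3, the inhibitor that acts on ADAM17 and the aggrecanases, had 313, 327 and 312 CPM in treated and 331, 336 and 346 CPM in control libraries and was not called (log2 change -0.09, SE 0.046, edgeR adjusted p = 0.0798).

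Of 32 listed substrates of ADAM10 and ADAM17, 27 passed the filter: 13 rose (48.1%, against 32.3% of all tested genes), 11 fell (40.7%, against 31.2%) and 3 were not called, and the median log2 change was 0.05. AREG, TGFA and DLL1 passed only through their treated libraries and EGF only through its control libraries. Without these 4 genes, 10 rose and 11 fell of 23, and the median was -0.11. Among the listed ligands of the EGF receptor family, AREG (amphiregulin) had 12.2, 11 and 11.6 CPM in treated and 0.345, 0.302 and 0.217 CPM in control libraries. Its log2 change was 5.31 (SE 0.244, edgeR adjusted p = 1.14e-28). EREG (epiregulin) had 9.25, 8.96 and 9.81 CPM in treated and 0.632, 1.21 and 0.704 CPM in control libraries, a log2 change of 3.46 (SE 0.214). TGFA was higher too (1.72, SE 0.531). HBEGF (0.25, SE 0.068, with overlapping libraries) and NRG1 (0.16, SE 0.058, edgeR adjusted p = 0.0135) were called higher by much smaller margins. EGF was not called, and BTC and EPGN were too low to test. TNF, the cytokine after which ADAM17 was named, had 0 counts in all 6 libraries. In the Notch pathway JAG1 had 71.9, 70.9 and 67.4 CPM in treated and 21.8, 19.5 and 20.5 CPM in control libraries (log2 change 1.76, SE 0.071). NOTCH1 (0.99, SE 0.063) and NOTCH3 (0.99, SE 0.104) rose, while NOTCH2 had 281, 303 and 287 CPM in treated and 624, 529.6 and 642 CPM in control libraries (-1.04, SE 0.051). The adhesion proteins split. L1CAM had 19.4, 21.8 and 20.6 CPM in treated and 79.4, 79.3 and 87.1 CPM in control libraries (log2 change -1.99, SE 0.070), and CDH2 fell too (-1.35, SE 0.054). CD44 (0.81, SE 0.048) and ICAM1 (0.31, SE 0.075) rose, and VCAM1 was too low to test.

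Of 22 listed substrates and matrix partners of the ADAMTS and ADAMTSL proteins, 19 were tested. Higher were 4 (21.1%, against 32.3% of all tested genes), lower were 12 (63.2%, against 31.2%) and 3 were not called; the median log2 change was -0.63. COL2A1 and VWF passed only through their treated libraries, and without them 3 were higher and 12 lower of 17. COL3A1 had 532, 556 and 503 CPM in treated and 2056, 2190.3 and 2165 CPM in control libraries. COL1A1 had 2753, 2873 and 2667 CPM in treated and 8968, 7684 and 8662 CPM in control libraries. CCBE1, the partner of ADAMTS3 in VEGF-C activation, had 14.7, 16.3 and 16.8 CPM in treated and 111, 110.4 and 117 CPM in control libraries, a log2 change of -2.82 (SE 0.068, edgeR adjusted p = 2.28e-43). CCBE1 and ADAMTS3 thus both fell. VEGFC was called lower as well, by a much smaller margin (log2 change -0.21, SE 0.072, edgeR adjusted p = 0.00859). COL2A1 went the other way, with 104 counts over the treated libraries and 1 over the controls, a ratio of 87.6 (95% counting interval 15.4 to 3491). LTBP2 (log2 change 1.28, SE 0.079), BCAN (1.10, SE 0.172) and VCAN (value above) were also called higher. COMP, the substrate of ADAMTS7 and ADAMTS12, was too low to test, as was ACAN, the gene of aggrecan.

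Of 10 listed modifiers, 7 were tested, 3 were higher, 2 were lower and 2 were not called; the 71.4% called was near the 63.5% of all tested genes, and the median log2 change was -0.06. With total counts the split was 3 higher and 1 lower. LRP1, the receptor that clears ADAMTS4 and ADAMTS5 from the matrix, had 792, 917 and 832 CPM in treated and 606, 525 and 561 CPM in control libraries (log2 change 0.59, SE 0.049). PAPLN, papilin, had 10.8, 9.10 and 9.63 CPM in treated and 6.38, 6.23 and 6.44 CPM in control libraries (0.63, SE 0.135). POFUT2, which adds fucose to thrombospondin repeats, had 68.7, 73.1 and 68.0 CPM in treated and 81.8, 79.4 and 82.6 CPM in control libraries (-0.22, SE 0.057).

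**Figure D4:**
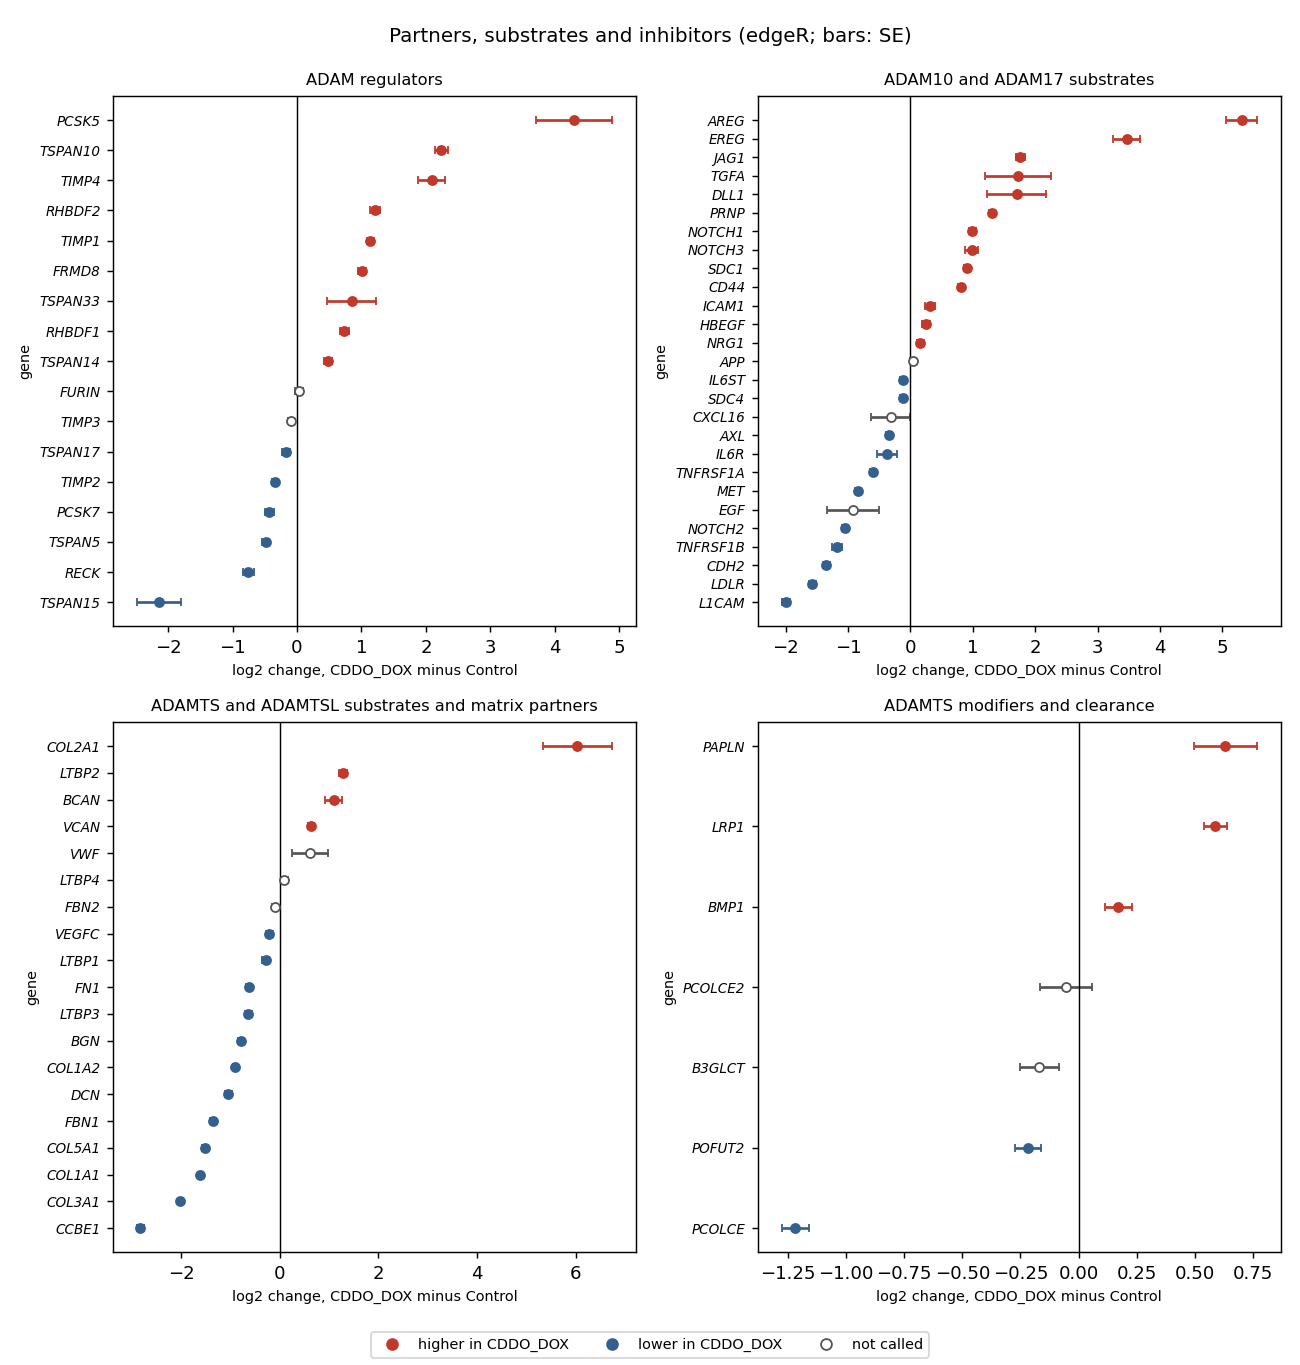
Log2 change, treated (CDDO_DOX) minus control, on the horizontal axis of each panel for the tested genes of the 4 lists, with bars of 1 SE; red points were called higher, blue points lower and open points not called. AREG stands furthest right among the substrates of ADAM10 and ADAM17, and the collagen genes except COL2A1 lie left of 0.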

How the data were processed

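RNA sequencing counts per gene were deposited for 6 libraries, 3 of treated and 3 of control AC16 cells. The authors deposited one table of raw counts with each gene's exon coordinates and length. Per the submitters' processing notes, STAR, SAMtools and featureCounts of Subread were used with hg38 (GRCh38); their versions are not given in the sources used here. Gene types came from GENCODE 29: 58179 of 58299 gene IDs were found in it. Per the labels' protocols, libraries were unstranded and made from RNA selected by polyA.

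From these counts, edgeR 4.0.16 in R 4.3.3 fitted a quasi-likelihood model on all 6 libraries with TMM normalisation, after filterByExpr at a minimum count of 10. P-values were adjusted by Benjamini-Hochberg over all 15575 tested genes, with a threshold of 0.05. The SE of a log2 change was its size divided by the square root of F. Count ratios of untested genes carry exact 95% intervals, and a group at 0 was set to a floor of 3 counts. The fit was tested on simulated data for this comparison (14718 genes tested): it recovered 99.1% of genes changed 2-fold and 85.9% of those changed 1.41-fold, with 11 false calls among 197. In the simulation only a small set of genes was changed, all well counted in control cells, with the same noise for all genes. Its rates do not cover members low in control cells, such as ADAM23, ADAMTS13 and ADAM8. Nor do they cover data with 63.5% of tested genes called. Exon overlaps came from bedtools 2.31.1. Alternatives were other scalings (RLE, upper quartile, total counts), other filters, DESeq2 1.42.0, a replicate block, each library left out, a stricter threshold and a test against a 1.5-fold change. Replicate pairs differed by more than counting noise (chi-square per degree of freedom 2.84 to 3.77), so each library counted as 1 sample. The members and gene lists were chosen with earlier results of these data known. Library values are given for members called at 2-fold or more, ADAM10, ADAM17 and the most abundant member of each role, and for the 4 largest called changes of each list plus fixed additions; other genes named were chosen after their values were seen.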

Additional observations from a re-analysis of the deposited data

How the results depend on the processing

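Of 91 recomputed counts, 88 stayed within 1.5 times the reported count. The other 3 came from testing against a 1.5-fold change: 2993 of all genes were called (reported 9893), 9 regulators (15) and 1 modifier (5), since small changes no longer pass by construction. Members called numbered 17 there (3 higher, 14 lower), 30 of 44 without a filter (13 higher, 17 lower), 27 with DESeq2 (11 higher, 16 lower), 23 with total counts and 22 of 26 without the 2 members that share over 10% of their exon bases with other genes, an alternative chosen after seeing the data. Leaving out each library gave 23 to 24 members, 9283 to 9695 genes, 13 to 16 regulators, 22 to 25 substrates, 16 to 18 matrix genes and 4 to 6 modifiers.

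Among single members, ADAM17, ADAMTS16, ADAM22, ADAMTS13, ADAM8, ADAMTS1 and ADAMTS5 lost their call against 1.5-fold. Sign changes were seen in ADAM11, whose log2 change ranged from -0.0913 to 0.211 over the left-out libraries (-0.0042 without control replicate 2, -0.0298 without treated replicate 3), and in ADAMTSL5, with -0.0030 to 0.151; the cause was not tested, and neither was called. Same-numbered libraries did not deviate together (correlations -0.0364, -0.0192 and -0.0127). These correlations cannot show whether same-numbered libraries were set up together. With the replicate block, 24 members and 9653 genes were called. Depth limits the 16 untested members, whose counts allow wide ratios.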
